A study of Homo sapiens with 5 samples.

Results

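WAS and other actin regulators of blood cells were examined in K562, an established line of human chronic myeloid leukaemia cells. The set held 8 genes, WAS, WASF1, WASF2, HCLS1, ARHGDIB, DOCK2, CORO1A and LSP1. Members were taken by gene symbol among the bead array probes that carried sample names, and their probes were selected on detection p-values, which had to be under 0.05 on 2 or more arrays. That gave 7 probes, 1 for each of 7 genes, among 19105 probes kept of 19144. The expression of WASF1 was not analysed here. CORO1A, detected on 4 of the 5 arrays, was nearest to the limit, the other 6 probes were detected on all 5, and no labelled member probe fell outside. Array probes of these genes that carried no sample names were not examined. The genes were put together with earlier results of these data known, WAS being among the largest rises, so the number of members that differ supports nothing by itself.

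The study compared K562 cells with a stable short hairpin RNA (shRNA) against JMJD1B (sh-JMJD1B), a histone H3 demethylase now named KDM3B, on 3 arrays, with cells carrying a control shRNA (sh-CTL, 2 arrays). Both groups used a Tet-on system and received doxycycline at 1 µg/ml over 48 h, after which total RNA was labelled and hybridised to Illumina beads. Whether replicates came from separate cultures, and the number of shRNAs and clones per group, are not in the labels. The p-values therefore measure only the spread between these samples, which may be technical, and a difference between the lines cannot be told apart from an effect of the knockdown. JMJD1B itself was not analysed here.

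Cells push their membrane forward by branching actin filaments. WASP, the product of WAS, and its WAVE relatives bring actin monomers to the Arp2/3 complex, which starts each new branch. WASP is switched on by the GTPase CDC42 and WAVE by RAC, and blood cells have their own versions of several regulators of this pathway. Inherited loss of WAS causes Wiskott-Aldrich syndrome, with small platelets, eczema and immune deficiency.

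Median signals were 464.5 to 498.6 on the knockdown arrays and 455.6 and 458.0 on the control arrays. Detected labelled probes numbered 18230 to 18348 on the knockdown arrays and 18455 and 18596 on the control arrays. The ranges were narrow, but the groups did not overlap on either measure. Of 11 erythroid markers of K562, 9 were measured and detected on all 5 arrays, with summed signals of 184736 to 193684 in the knockdown and 191143 to 193438 in the control. HBG1 and HBG2, fetal globins with mean signals of 64790 and 65558, make up most of these sums and lie near the top of the signal range, where a change can go unseen. HBZ, embryonic globin, was the only one of them called, and it fell by 0.56 on the log2 scale. Of 10 markers of monocytes and granulocytes 4 were measured, and limma called 0 of them (1 lower and 0 higher at an unadjusted p under 0.05). Their summed signal was 2006 to 2161 in the knockdown and 1913 to 2155 in the control, most of it from SPI1 (mean signal 1210). Of 7 lymphocyte markers 4 were measured and 1 was called, CD3D of the T cell receptor, which rose by 0.38. The summed signal of the lymphocyte markers was 3374 to 3479 in the knockdown and 2504 to 2766 in the control, most of it from CD3D. The other 3 measured were at -0.18 (CD2), -0.04 (CD79A) and 0.01 (LCK). Their mean signals of 164.0, 204.8 and 171.1 lay near the background (median 124.0 over probes detected on no array), where a change can go unseen. Only 2 of the 4 lymphocyte markers were detected on all 5 arrays. The lymphocyte markers PTPRC, CD3E and MS4A1 were not analysed here. Of 8 markers of fibroblasts, epithelium and endothelium 4 were measured and EPCAM fell by 0.51, with summed signals of 5806 to 6472 against 6896 to 6929. Most of that sum came from EPCAM and KRT8, with mean signals of 2838 and 3186. KRT8 was at -0.06, KRT18 at 0.10 and DCN at -0.02, and none of them was called. Whether cells or transcripts of another lineage have a part in the differences below was not tested.

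The members lie on 7 different chromosomes (X, 3, 12, 5, 16, 11 and 1 for WAS, HCLS1, ARHGDIB, DOCK2, CORO1A, LSP1 and WASF2), so they are no cluster of neighbouring genes. Promoter sequences of the 4 members that rose are shown because these genes moved in the same direction. Each is the stretch of 250 bases before a transcription start in RefSeq (GRCh38.p14), written 5′ to 3′ on the strand of the gene, with capitals marking each match to GGAAGT, the core bound by ETS transcription factors, or to GAGGAA, a related purine-rich word, or their reverse complements ACTTCC and TTCCTC.
WAS promoter, chrX:48683549-48683798, plus strand: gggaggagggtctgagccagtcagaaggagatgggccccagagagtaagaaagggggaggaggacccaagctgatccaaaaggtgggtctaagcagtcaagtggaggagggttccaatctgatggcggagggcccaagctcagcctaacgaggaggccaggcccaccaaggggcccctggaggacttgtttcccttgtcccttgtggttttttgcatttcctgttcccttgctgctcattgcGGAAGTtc
HCLS1 promoter, chr3:121660904-121661153, minus strand: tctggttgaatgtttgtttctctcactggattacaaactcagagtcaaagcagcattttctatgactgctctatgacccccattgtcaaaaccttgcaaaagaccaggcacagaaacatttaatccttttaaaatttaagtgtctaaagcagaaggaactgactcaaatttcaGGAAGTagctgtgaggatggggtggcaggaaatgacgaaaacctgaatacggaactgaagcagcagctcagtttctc
ARHGDIB promoter, chr12:14948897-14949146, minus strand: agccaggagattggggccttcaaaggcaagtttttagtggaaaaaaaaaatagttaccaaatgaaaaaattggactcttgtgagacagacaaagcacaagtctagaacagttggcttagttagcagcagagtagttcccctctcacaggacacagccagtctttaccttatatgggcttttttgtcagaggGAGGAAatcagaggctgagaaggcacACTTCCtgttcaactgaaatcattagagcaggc
DOCK2 promoter, chr5:169637025-169637274, plus strand: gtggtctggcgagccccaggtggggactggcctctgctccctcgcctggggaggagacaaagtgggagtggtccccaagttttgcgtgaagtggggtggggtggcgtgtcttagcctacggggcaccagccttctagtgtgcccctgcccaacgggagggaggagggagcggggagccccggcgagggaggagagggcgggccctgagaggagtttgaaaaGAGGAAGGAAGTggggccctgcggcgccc

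GGAAGT or its reverse complement lay 8 bases before the WAS start, 77 before that of HCLS1, 33 before that of ARHGDIB and 23 before that of DOCK2. Among all 35116 windows of the same length in the table, 19.5% held this word. It was added to the search after the sequences had been read. The table lists several starts for WAS and ARHGDIB, and the windows shown are the only ones of these genes that hold GGAAGT. The other windows of WAS and ARHGDIB lack it. The share of 19.5% counts every window, so it is no background for a window picked per gene. The arrays do not show which start K562 cells use. GAGGAA matched at 59 bases before the ARHGDIB start and 29 before that of DOCK2, where the 2 words do not overlap, and is found in 23.6% of all windows. CORO1A and WASF1 had a GAGGAA match, at 233 and 177 bases, and no GGAAGT. The word AGATAA, bound by erythroid zinc finger factors, matched in none of the 9 windows of the 6 members that the table holds, against 9.17% of all windows. CAGATG, an E-box, also matched in none of them, against 12.2% of all windows. Other spellings of either site were not searched, and some of the 9 windows overlap, so these absences carry little weight. A match describes the letters and is no evidence that a factor binds there, and the absence of a word says only that these letters are not in these windows.

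Values below are deposited bead signals in linear units. Differences are knockdown minus control on the log2(signal + 16) scale after quantile normalization, ± standard error (n = 3 and 2), with adjusted p-values from limma over all 19105 probes. The background is still in these signals, so differences of dim genes are understated. Of the 7 member probes 4 were higher at an adjusted p under 0.05 and 0 were lower. At that threshold 2.35% of all probes were higher and 2.72% lower. At an unadjusted p under 0.05 in limma, 5 member probes were higher and 0 lower. The share of all probes at that looser threshold is not given, so unadjusted counts, here and for the markers and lists, have no background. Without normalization 83.8% of the calls over all probes were higher, against 46.4% as reported, and the median of all probes was 0.072 in place of -0.001. The same 4 members were called either way. The median difference of the 7 members was 0.42.

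WAS, the regulator that starts branched actin in blood cells, had the largest difference of the set as normalized here, although with the background subtracted or with normexp HCLS1 had a larger one. Its probe ILMN_1760027 read 1064, 954.6 and 909.2 in knockdown replicates 1 to 3 and 397.0 and 380.2 in control replicates 1 and 2. All knockdown arrays lay above both control arrays, and the lowest of the former was 2.29-fold the highest of the latter. Normalized levels averaged 9.93 ± 0.05 (SD, n = 3) with the JMJD1B shRNA against 8.70 ± 0.05 (SD, n = 2) with the control shRNA. The difference of 1.23 ± 0.06, or 2.34-fold, was far larger than the spread between replicates (limma adjusted p = 3.9e-06, 95% interval 1.09 to 1.37), and it was the 12th largest rise of the 19105 probes. With the pooled background of 124.0 subtracted it was 1.54, or 2.92-fold (adjusted p = 0.0038). Since RNA of whole cultures was measured, a higher signal in more of the cells and a higher signal per cell cannot be told apart, here or for any other member.

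WASF2 encodes WAVE2, the broadly expressed WAVE protein that acts below RAC. Its probe ILMN_1684051 read 1555, 1392 and 1473 in the knockdown and 1350 and 1309 in the control. The deposited signals of the groups did not overlap, but after normalization the lowest knockdown array, at 10.46, lay just under the highest control array, at 10.47. The difference was 0.08 ± 0.06 and was not called (limma adjusted p = 0.52), with a 95% interval of -0.06 to 0.22.

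HCLS1, also known as HS1, is the blood-cell relative of cortactin, which holds Arp2/3 branches together. Its probe ILMN_1727402 read 318.3, 303.6 and 291.3 in the knockdown and 174.6 and 157.6 in the control. The groups stood apart, and the control signals lay near the background, with a detection p-value of at most 0.038. HCLS1 rose by 0.74 ± 0.06, or 1.67-fold (limma adjusted p = 0.00014). Its size depended on the background more than that of WAS: with the pooled background subtracted it was 1.57, or 2.96-fold (adjusted p = 0.010).

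ARHGDIB and DOCK2 act on small GTPases. ARHGDIB encodes a GDP dissociation inhibitor of blood cells, which keeps such GTPases in the cytosol. Its probe ILMN_1678143 read 6353, 5649 and 5737 in the knockdown and 2821 and 2879 in the control. After normalization the replicates were nearly identical, with an SD of 0.01 in each group, and the groups were 0.95 apart at their nearest arrays. ARHGDIB rose by 0.97 ± 0.06, or 1.96-fold (limma adjusted p = 9.9e-06), and the value was hardly altered by subtraction of the pooled background (difference 1.00).

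DOCK2, an exchange factor that loads RAC with GTP in blood cells, had a smaller difference. Its probe ILMN_1799725 read 3057, 2753 and 2815 in the knockdown and 1988 and 2097 in the control. The groups did not overlap. DOCK2 rose by 0.42 ± 0.06, or 1.33-fold (limma adjusted p = 0.0035). The call was narrow with the pooled background subtracted (0.44, adjusted p = 0.049) and was lost with normexp on the labelled probes alone (0.44, adjusted p = 0.057).

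**Figure D1:**
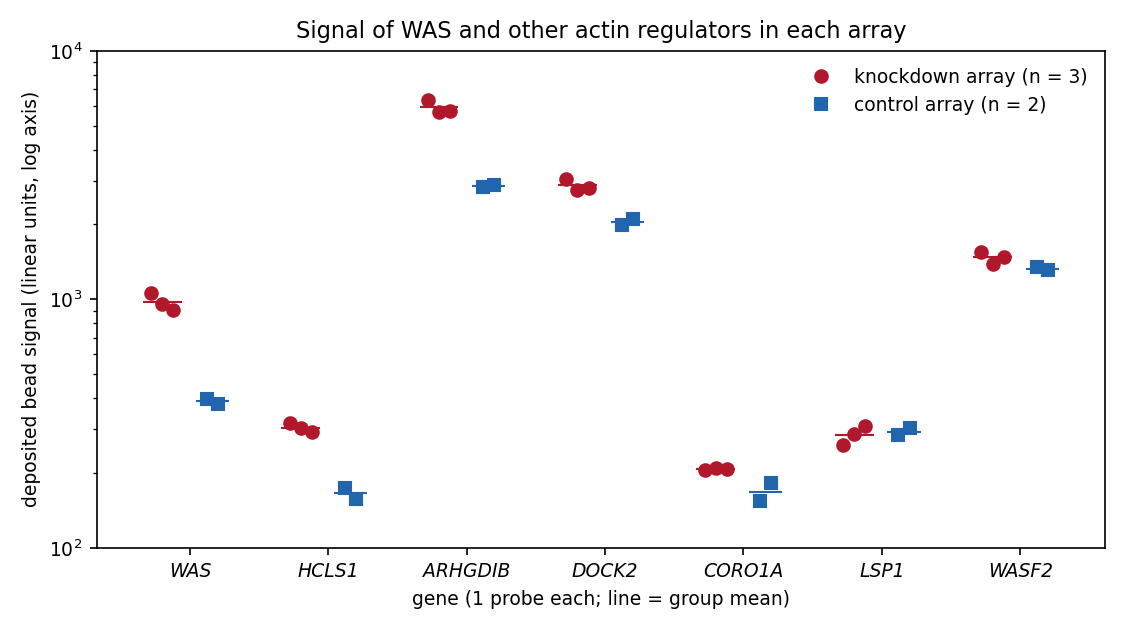
Deposited bead signal (log axis) of each member in each array, with red circles for the 3 knockdown arrays, blue squares for the 2 control arrays and lines at the group means. WAS, HCLS1, ARHGDIB and DOCK2 show a clear gap between the groups, CORO1A a narrow one, and the groups of LSP1 overlap. Signals of different genes come from different probes and are not compared.

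CORO1A and LSP1 bind actin filaments directly. CORO1A encodes coronin 1A, a blood-cell protein that takes part in the turnover of branched networks. Its probe ILMN_1713749 read 206.4, 210.3 and 207.1 in the knockdown and 154.9 and 182.1 in the control. It was detected on all knockdown arrays and on 1 of the 2 control arrays, and the normalized groups were only 0.04 apart at their nearest arrays. The difference of 0.20 ± 0.07 was not called (limma adjusted p = 0.15, unadjusted p = 0.020). It was 0.09 without control replicate 1, on which the probe was undetected, and 0.31 without control replicate 2. Of the 7 members 5 had groups that did not overlap with the knockdown higher, among them CORO1A, where 17.6% of all probes did so.

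LSP1, a leukocyte protein that bundles actin, was measured by ILMN_2355225 and read 259.1, 286.1 and 308.1 in the knockdown and 283.5 and 302.5 in the control. The groups overlapped, and in the deposited signals 1 knockdown array was the highest of all and another the lowest. The difference of -0.11 ± 0.09 was not called (limma adjusted p = 0.54), with a 95% interval of -0.31 to 0.09. Without knockdown replicate 1, the lowest array, it was -0.02.

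**Figure D2:**
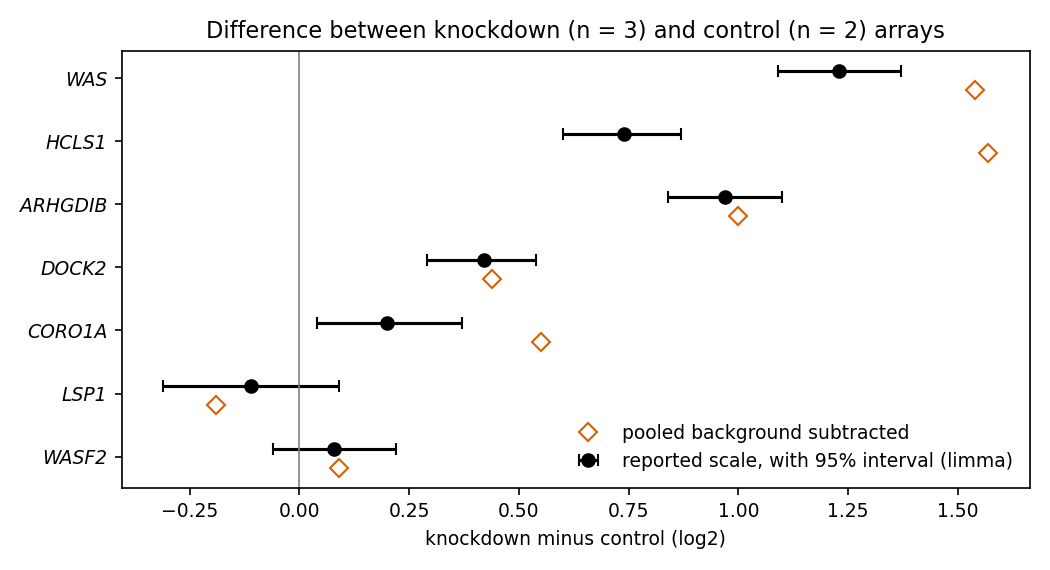
Knockdown minus control on the log2 scale for each member, as reported with its 95% interval from limma (black) and after subtraction of the pooled background (open diamonds). The intervals of WAS, HCLS1, ARHGDIB and DOCK2 lie well above 0, and the diamonds of WAS, HCLS1 and CORO1A lie to the right of their intervals.

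The deposited signals of knockdown replicate 1, the brightest array with a median of 498.6, were the highest for WAS, HCLS1, ARHGDIB, DOCK2 and WASF2. After normalization the knockdown replicates of these genes differed by little, with SDs of 0.01 to 0.05. The 4 calls kept their side of the threshold with any 1 of the 5 arrays left out, and the differences then ran from 1.19 to 1.26 for WAS, 0.68 to 0.79 for HCLS1, 0.96 to 0.98 for ARHGDIB and 0.40 to 0.44 for DOCK2.

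**Figure D3:**
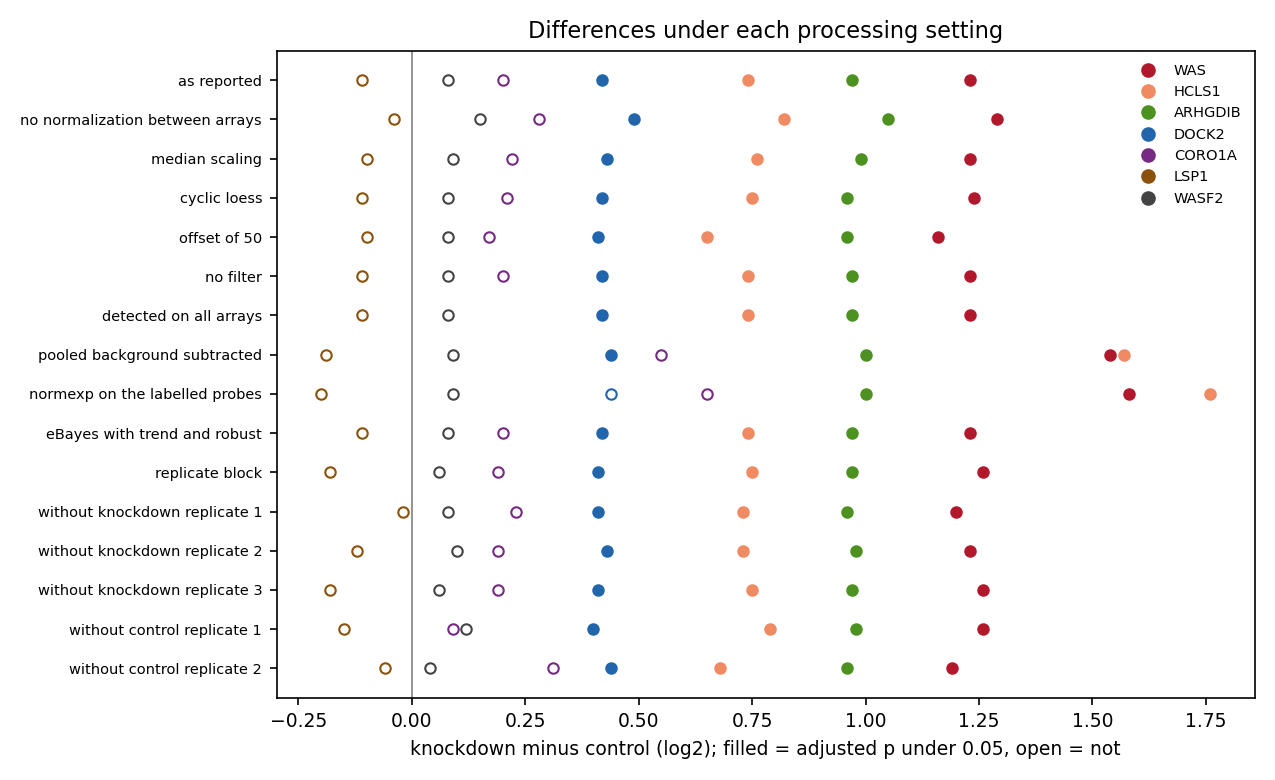
Knockdown minus control (log2) of each member under the reported processing and 15 alternatives, with filled points where the adjusted p from limma was under 0.05 and open points where it was not. WAS, HCLS1 and ARHGDIB are filled in every row, DOCK2 in all but normexp on the labelled probes, and CORO1A, LSP1 and WASF2 in none. CORO1A has no point under the filter for detection on all arrays.

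The genes whose pattern over the 5 arrays lay closest to that of WAS were RAB27B, a GTPase of granule release, ZPLD1, the myeloid membrane protein gene MS4A6A, the adaptor gene SAMSN1 and KYNU, an enzyme of tryptophan breakdown. The measure was the Euclidean distance of mean-centred log2 levels over the 5 arrays, and the distances were 0.11, 0.16, 0.22, 0.22 and 0.24, against a median of 1.36 over 13550 probes searched. Their differences were 1.28, 1.36, 1.37, 1.06 and 1.35, so the likeness follows the size of the difference. The next probe of RAB27B was at 0.04, while those of MS4A6A, SAMSN1 and KYNU were at 1.83, 0.55 and 0.74. On the same measure ARHGDIB lay 0.30 from WAS, HCLS1 0.54, DOCK2 0.90, CORO1A 1.15 and WASF2 1.27, with LSP1 farthest.

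Other genes of the pathway were taken from 7 lists, also drawn up with earlier results of these data known. Of 116 genes listed 88 were measured, 10 of which were higher and 2 lower, where 2.56% of all 11041 genes were higher and 3.7% lower. These shares of all genes also apply to the counts of each list below, and unadjusted counts there have no background. The median difference of the 88 was 0.055, against -0.009 for all genes. With the pooled background subtracted 4 were higher, WIPF1, NCKAP1L, ARHGAP9 and LCP2, and 0 were lower in limma. Under that setting 130 of all 19105 probes were higher and 92 lower, so the shares above do not apply to it. Dim genes then moved further, WIPF1 to 1.14, ARHGAP9 to 1.17 and LCP2 to 0.83.

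Among partners and activators of WASP, 2 of 13 measured rose and 0 fell (5 and 0 at an unadjusted p under 0.05), with a median of 0.065. WIPF1 encodes WIP, which binds WASP and shields it from degradation. Its probe ILMN_2351298 read 356.7, 313.1 and 278.9 in the knockdown and 199.1 and 185.6 in the control. All 3 knockdown arrays were above both controls, and WIPF1 rose by 0.59 ± 0.08 (limma adjusted p = 0.0026). Its next probe rose as well, by 0.42 (adjusted p = 0.015). NCK2, an adaptor that links receptors to WASP proteins, rose by 0.32 (limma adjusted p = 0.029), but its next probe was at -0.07. The NCK2 call was lost without knockdown replicate 2 (0.31), knockdown replicate 3 (0.30) or control replicate 2 (0.24).

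In the WAVE complex 1 of 6 measured subunits rose and 1 fell, with a median of 0.113. NCKAP1L encodes HEM1, the subunit of blood cells. Its probe ILMN_1674250 read 1418, 1313 and 1322 in the knockdown and 872.2 and 876.1 in the control. The groups stood well apart and NCKAP1L rose by 0.55 ± 0.06 (limma adjusted p = 0.00051). NCKAP1, named as its widely expressed counterpart and not by its p-value, was at 0.09 (limma adjusted p = 0.42). CYFIP1, the subunit that binds RAC, fell by 0.31 (limma adjusted p = 0.026) and was at -0.12 on its next probe. CYFIP2, a close relative of CYFIP1 named after its values were seen, was at 0.14 (adjusted p = 0.24) on its brightest probe and 0.31 (adjusted p = 0.027) on its next. The CYFIP1 call was lost without knockdown replicate 1 (-0.31), knockdown replicate 2 (-0.27), control replicate 1 (-0.30) or control replicate 2 (-0.31).

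The Arp2/3 complex itself had 0 of 9 measured subunits called in limma (1 higher and 0 lower at an unadjusted p under 0.05), with a median of 0.047. ARPC4 (0.30, adjusted p = 0.095) and ACTR3B (0.12, adjusted p = 0.28) had the smallest p-values. ARPC4 was at 0.45 without control replicate 1 and at 0.15 without control replicate 2. Without normalization between arrays it was called (0.36, limma adjusted p = 0.024).

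Among other DOCK, ELMO and VAV genes 0 of 11 measured rose and 1 fell (1 and 1 at an unadjusted p under 0.05 in limma), with a median of -0.012. ELMO2, a partner of DOCK proteins, fell by 0.27 (limma adjusted p = 0.037), while its next probe was at -0.08. The ELMO2 call was lost with any 1 of the 5 arrays left out, where the difference was -0.30 to -0.24. In the list of other coronins and the cofilin cycle 1 of 14 measured rose, with a median of 0.028. GMFG, a blood-cell protein that takes apart Arp2/3 branches, read 6753, 5788 and 5711 in the knockdown and 3873 and 4587 in the control. The groups did not overlap and GMFG rose by 0.44 ± 0.07 (limma adjusted p = 0.0072), a call that was lost without control replicate 1 (0.36, adjusted p = 0.059).

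Of 23 genes of actin itself, its nucleators, bundlers and cappers, 1 rose and 0 fell, with a median of 0.046. At an unadjusted p under 0.05 in limma, 6 were higher and 3 lower. The 6 include FMNL1 (0.26), named here because it was detected on 2 knockdown and 0 control arrays. It passed the detection filter only through the knockdown, so its part in that count carries no weight. ACTB, cytoplasmic beta actin, rose by 0.28 (limma adjusted p = 0.021), and its next probe was also at 0.28 (adjusted p = 0.054). DIAPH1, a formin that elongates unbranched filaments, was also named after its values were seen, and was at 0.20 (adjusted p = 0.14) on its brightest probe and 0.28 (adjusted p = 0.038) on its next. The ACTB call was lost with any 1 of the 5 arrays left out, where the difference was 0.28 to 0.29.

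In the list of other actin regulators of blood cells 5 of 12 measured rose and 0 fell (7 and 0 at an unadjusted p under 0.05 in limma), with a median of 0.173. Over all 11041 genes 2.56% were higher and 3.7% lower at the adjusted threshold, and the unadjusted counts have no background. ARHGAP9, a GTPase-activating protein, read 302.4, 289.1 and 297.0 in the knockdown and 180.9 and 184.1 in the control. Its groups were well separated and it rose by 0.58 ± 0.06 (limma adjusted p = 0.00045). LCP2 encodes SLP-76, an adaptor that joins receptor signals to VAV and NCK, and rose by 0.42. FERMT3, the kindlin that switches on integrins in blood cells, rose by 0.39 and by 0.53 on its next probe (limma adjusted p = 0.0062 and 0.0016). ARHGAP15, which acts on RAC, rose by 0.39. ARHGAP25, named after its value was seen, also acts on RAC and rose by 0.38 (adjusted p = 0.016). The calls of LCP2 (0.36, adjusted p = 0.050) and FERMT3 (0.34, adjusted p = 0.055) were lost without control replicate 1, and that of ARHGAP15 without control replicate 2 (0.38, adjusted p = 0.056). NCKAP1L and ARHGAP9 were called under all 15 alternatives run.

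**Figure D4:**
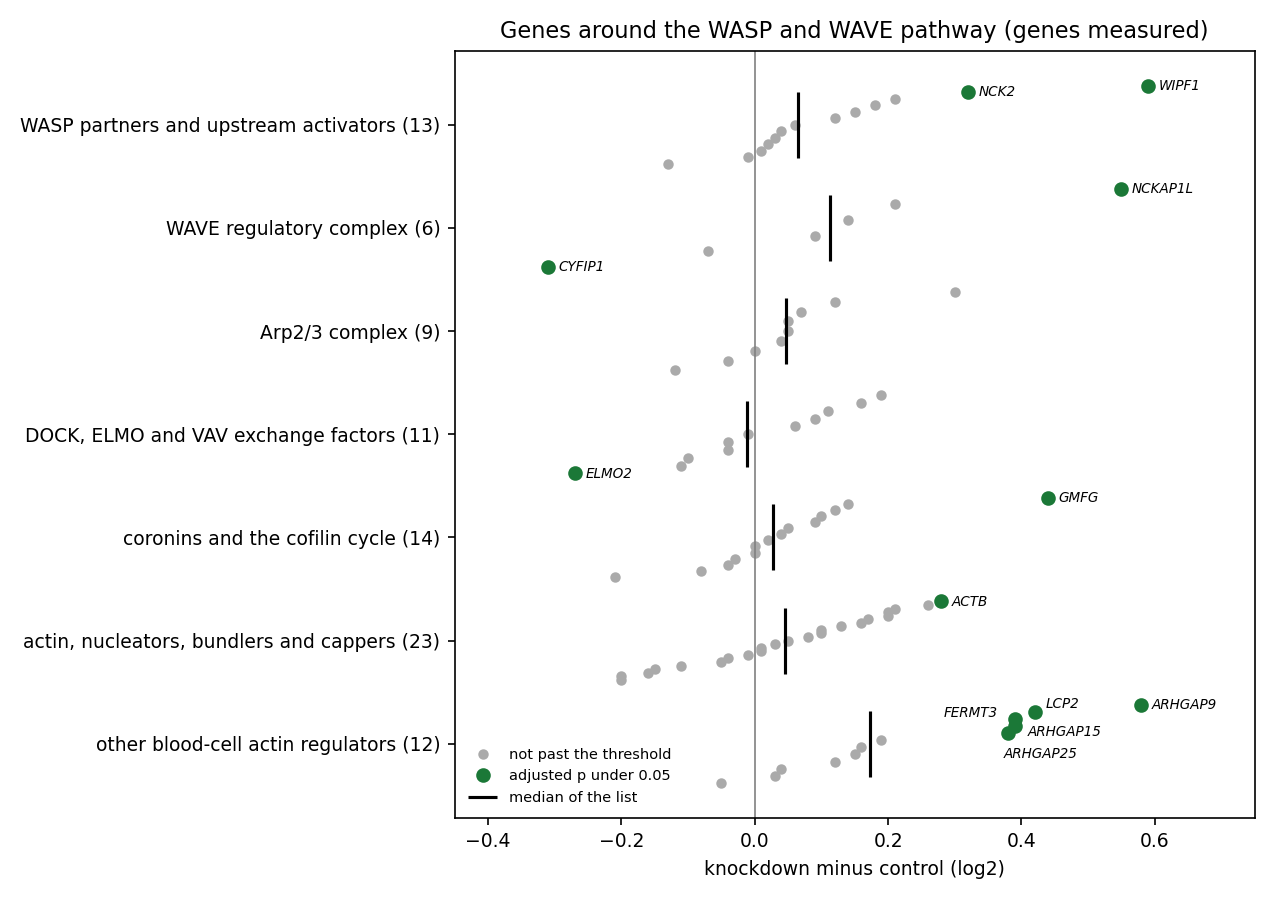
Knockdown minus control (log2) for 88 measured genes of 7 lists around the WASP and WAVE pathway, 1 point per gene, in green where the adjusted p from limma was under 0.05, with a black line at each list's median. Most points lie within 0.3 of 0, and 10 of the 12 called genes lie to the right. Vertical position within a list only orders the points.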

How the data were processed

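Per the labels' protocols, total RNA (0.55 µg) was amplified into biotin-labelled cRNA. The submitters' processing notes name GenomeStudio 2009.2, with no settings for background or normalization. The values deposited under sample names are linear bead intensity. A larger deposited table holds signals and a detection p-value for 47321 probes, per the file headers. Its 5 signal columns match no sample name and served only as a key and, pooled, as a background level (median 124.0 over probes detected on no array).

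Each of 19144 labelled rows had the 5 signals of exactly 1 probe of the larger table, but only 47 carried that probe's ID, so rows were named through the larger table. The platform annotation gave 1 gene symbol for 14581 of these probes and several for 2. For 14574 the symbol was updated through a RefSeq table (GRCh38.p14). Promoters come from a RefSeq table of the same assembly.

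Signals plus 16 were put on a log2 scale, quantile normalized and fitted with limma 3.58.1 in R 4.3.3, with group as the only term, 3 residual degrees of freedom (10.1 with the prior) and Benjamini-Hochberg adjustment over 19105 probes. A gene of a list was represented by its brightest kept probe. Precision is limited by the number of arrays (median standard error 0.07). The fit was also run on simulated log2 levels with independent noise between arrays. That run held no normalization and no difference between lines, so it checks neither.

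Named are all member probes, up to 4 called genes per list by p (or the 2 with the smallest p), and the 5 genes closest to WAS. A few other genes of the lists are named where the text says so. The members and lists were chosen with earlier results of these data known. No set test was made. One pathway list and one marker are not reported here.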

Additional observations from a re-analysis of the deposited data

How the results depend on the processing

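WAS, HCLS1 and ARHGDIB kept their direction and their call under all 15 alternatives, at 1.16 to 1.58, 0.65 to 1.76, and 0.96 to 1.05. DOCK2 did so under 14, at 0.40 to 0.49, and with normexp it was at 0.44 (adjusted p = 0.057). LSP1 and WASF2 were called under none of the 15, and CORO1A under none of the 14 that kept its probe (lowest adjusted p in limma 0.29, 0.29 and 0.056). The cause of the following moves was not tested. Over all probes, 449 higher and 519 lower became 791 and 153 without normalization, 130 and 92 with the pooled background subtracted, 95 and 52 with normexp, and 194 and 145 with the replicate number as a block, or 83.8%, 58.6%, 64.6% and 57.2% higher against 46.4%. With any 1 array left out, 176 to 239 were higher and 131 to 216 lower, with fewer samples in the fit. Of the pathway lists, 10 higher genes became 4 with the pooled background subtracted and 3 with normexp, and 6 to 9 with any 1 array left out. The 2 lower genes became 0 without normalization, with the pooled background subtracted, with normexp and with the replicate block, and 0 to 1 with any 1 array left out. Nothing in the labels pairs arrays by replicate number. Deviations of same-numbered arrays correlated at -0.219 and -0.091 across probes. With 2 control arrays their deviations mirror each other, so these values cannot show whether arrays were paired. With the replicate block (1 residual degree of freedom) the 4 members kept their calls, with WAS at 1.26, HCLS1 at 0.75, ARHGDIB at 0.97 and DOCK2 at 0.41. Knockdown replicate 3 has no control of its number, so under the block it adds nothing to these differences. Signals near the background limit HCLS1 and CORO1A. Without a control replicate the lone control is assumed to vary like the knockdown arrays. No slide is named, so no slide block was run.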
